A study of Mus musculus with 169 samples.

Results

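Gene expression in the cerebellum was compared with that in the cerebral cortex of the same wild-type (WT, Grn+/+) mice. The comparison used the bead arrays whose labels gave a WT genotype and 1 of these 2 regions, and kept the mice that had both. These were 16 mice and 32 arrays, out of 169 samples in the series. The series studied loss of progranulin, the protein product of Grn, which is secreted and also acts in lysosomes, and measured cortex, hippocampus and cerebellum of WT, heterozygous (het, Grn+/-) and knockout (KO, Grn-/-) mice. Mice of all 3 genotypes had a mixed background, given as 62.5% C57BL/6J, 25% FVB and 12.5% 129Sv/Jae. The WT pairs comprised 4 mice of 2 months, 3 of 6 months, 3 of 9 months, 2 of 12 months, 1 of 16 months and 3 of 18 months, and the labels name no treatment. The arrays of 17 KO and 14 het mice with both regions served as the same measure in other animals.

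The cerebellum and the cortex hold different kinds of neurons. The cerebellum is dominated by small excitatory granule cells, and the only output neurons of the cerebellar cortex are the inhibitory Purkinje cells. The cerebral cortex is built of layers of excitatory pyramidal neurons with several classes of inhibitory interneurons among them. Glial cells also differ, with Bergmann glia lying beside the Purkinje cells. In whole tissue, fewer cells of a type and less RNA per cell cannot be told apart.

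The deposited bead array table names each of its 25697 probes by an Illumina identifier and does not pair identifiers with genes. Results are therefore given by probe, and the labelled regions and Grn itself were not checked against named marker genes. A probe was tested when its detection p-value, the authors' measure of signal over negative-control beads, was under 0.05 on at least 3 of the 32 arrays. This left 16420 probes (63.9%). The 390 probes detected on exactly 3 arrays had a median level of 5.25, and the 584 detected on exactly 2, which were left out, had 5.21. Levels are log2 intensities after background correction and normalization, so a difference of 1 is a doubling.

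Between 47.6 and 55.2% of probes were detected per array. The 2-month arrays were dimmer, with raw intensities of median 82.1 to 98.2 against 138.6 to 352 on arrays of later ages, so age and array brightness cannot be told apart between these sets. Exactly 1 probe was lower on all KO than on all WT arrays of each region by 0.5 or more. It was chosen by the KO and WT labels, so it is no independent check of them. Its mean level in cerebellum was 9.69 in WT, 8.61 in het and 4.84 in KO mice, and in cortex 9.74, 8.77 and 4.82. In cerebellum its het range, 7.57 to 9.32, overlapped the WT range, 8.68 to 10.09, so it does not check the het labels. KO mouse 434, labelled male, had the levels of a female on sex-dependent probes in all 3 regions, and sex entered no test. By label, the WT pairs were 1 female and 3 males at 2 months, 3 females at 6 months and 3 males at 9 months. The 2 mice of 12 months had no sex label, that of 16 months was male, and 18 months had 1 female and 2 males. Age and sex therefore cannot be told apart between some ages.

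The cerebellum array of WT mouse 317, a 2-month male by its label, stood apart from the other cerebellum arrays. On 169 probes that were lower in cerebellum in both KO and het mice, by at least 2 in each, its median level was 8.76, against 5.91 to 7.40 in the other 15 WT cerebella. On 89 probes that were higher by at least 2 in both, its median was 9.00, against 9.15 to 10.02. Its cortex array lay at 10.13 and 5.85 on these sets, within or at the edge of the other cortex arrays (9.69 to 10.13 and 5.67 to 6.53). The same cerebellum array also carried signal of both sexes. On 2 probes that are higher in females, chosen on het and KO cortex arrays, its mean level was 7.93, against 4.97 to 5.74 in the 8 other cerebella labelled male and 8.48 to 9.28 in the 5 labelled female. On the male-dependent probe it lay at 9.25, within the 8.86 to 10.4 of the other males. The 2 cerebella with no sex label had 7.82 and 8.22 on the female probes and 4.69 to 4.81 on the male probe. The choice of these probes took mouse 434 as male, as labelled. The cortex array of mouse 317 had 5.23 and 9.50, like the other males.

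KO mouse 252 and het mouse 307, both of 2 months, went against their region labels. Over the 137 probes called higher by 2 or more in WT cerebellum, the libraries labelled cerebellum of these mice had median levels of 6.44 and 6.29, while the other 30 KO and het cerebella lay between 8.78 and 9.79. Over the 226 probes called lower by 2 or more in WT cerebellum, they had 9.43 and 9.72, against 5.72 to 7.99. The libraries labelled cortex of the same 2 mice had 8.17 and 8.34 on the first set, against 5.99 to 7.45 in the 34 other KO and het cortex arrays. On the second set they had 9.21 and 9.02, below the 9.28 to 9.78 of the others. In the plot of all arrays, both cerebellum-labelled libraries sit among the forebrain arrays. The main KO and het results are given with and without these mice. The probe sets chosen in KO and het mice, used above and for the age series, were chosen with both mice included. Results for these sets are given in that form only.

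**Figure D1:**
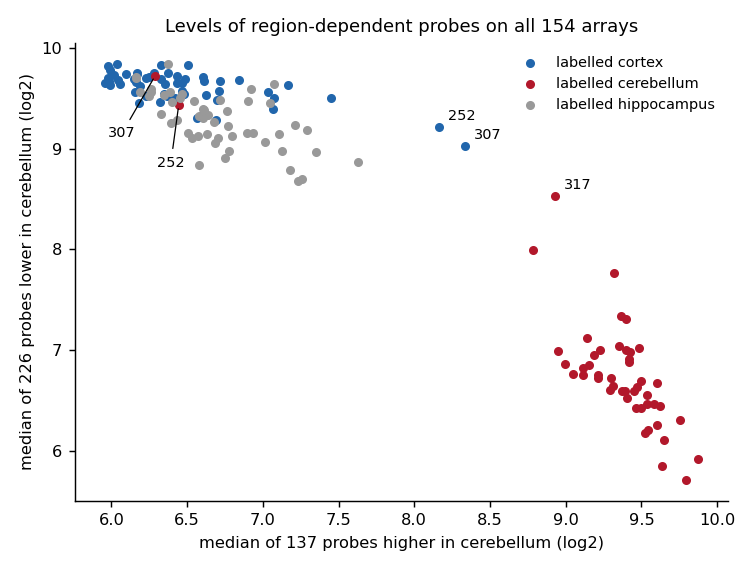
Each point is 1 of the 154 bead arrays, coloured by its labelled region. The x axis is the median log2 level of 137 probes called higher, and the y axis that of 226 probes called lower, by 2 or more in WT cerebellum than WT cortex. The libraries labelled cerebellum of mice 252 and 307 lie among cortex and hippocampus arrays, and the cerebellum array of WT mouse 317 lies above the other cerebella on the y axis at 8.53.

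The paired comparison asked which transcripts differ between cerebellum and cortex of 1 animal. Most tested probes differed between the regions. Of 16420 probes, 9539 (58.1%) passed limma's moderated test paired by mouse, at a Benjamini-Hochberg adjusted p under 0.05. With no detection filter, 9715 of 25697 probes (37.8%) passed. Of all probes tested, 4994 (30.4%) were higher and 4545 (27.7%) lower in cerebellum. Most of these differences were small. The median size among called probes was 0.45, and the median difference over all tested probes was 0.013. A difference of 1 or more was found for 692 probes higher and 897 lower in cerebellum, and of 2 or more for 137 and 226 (43 and 84 without background correction). Above 3, there were 38 higher and 61 lower. Small differences were thus more often toward the cerebellum (2865 higher and 2442 lower under 0.5), and large ones more often toward the cortex.

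**Figure D2:**
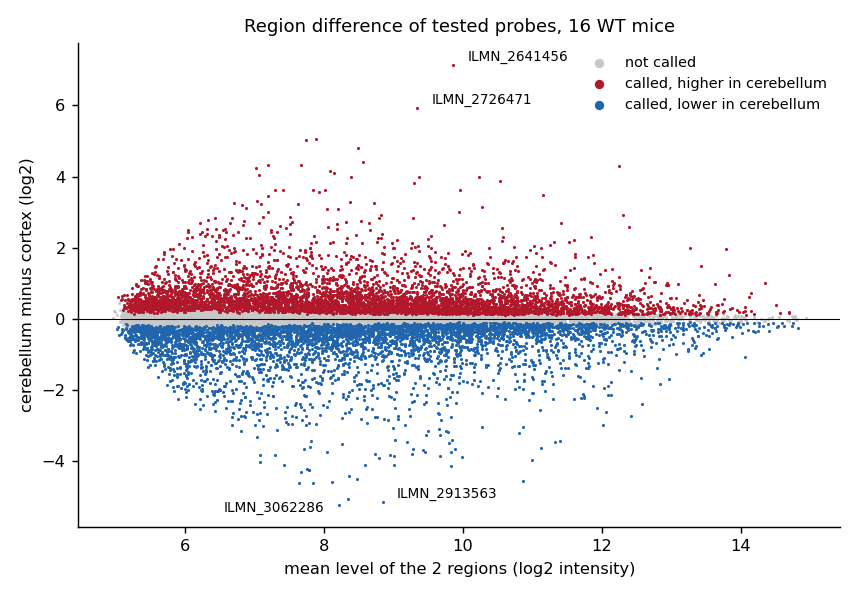
Each point is 1 of 16420 tested probes. The x axis is its mean log2 level over both regions of 16 WT mice and the y axis is cerebellum minus cortex (log2). Red points are the 4994 called higher and blue points the 4545 called lower. The 4 labelled probes have the largest fitted differences, 2 in each direction, among called probes with the same direction in all 16 mice.

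The direction held in every animal for a smaller share of probes. Probes that were higher in cerebellum in all 16 mice numbered 1885 (11.5% of tested probes), and 1915 (11.7%) were lower in all 16. Another 369 had the same direction in all mice but mouse 317, a count made for that mouse only. Among called probes, the share that ran against the group's direction was 16.9% in mouse 317 and 4.92 to 13.6% in the other mice. For 492 probes (3%) every cerebellum array was above every cortex array, and for 520 (3.17%) every cerebellum array was below.

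Detection varied with level. With the probes in 4 groups of equal size by mean level, 33.5% were called in the lowest group and 61%, 69.1% and 68.7% in the higher groups. The median standard error (SE) of a difference was 0.104 in the lowest group and 0.0575 in the highest. Of the 9763 probes detected on all 32 arrays, 67.7% were called.

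Some probes were detected in 1 region only. On 3 or more cerebellum arrays and 0 cortex arrays there were 252, and on 3 or more cortex arrays and 0 cerebellum arrays 233. Within these, 18 probes were detected on all 16 cerebellum arrays and on 0 of 16 cortex arrays. They had mean levels of 6.49 to 8.42 in cerebellum and 4.79 to 5.37, not above background, in cortex, and were at least 1.65-fold to at least 6.28-fold higher in cerebellum, each bound set against the lowest signal detected on the cortex arrays. In the opposite direction, 19 probes were detected on all 16 cortex arrays and on 0 cerebellum arrays, and were at least 1.54-fold to at least 3.54-fold lower in cerebellum. The 2 groups differed in the hippocampus, as values side by side. Of the 18 cerebellar probes 11 were detected on none of the 16 WT hippocampus arrays, whereas each of the 19 cortical probes was detected on at least 1. The all-or-none pattern was repeated in full by 0 of the 37 probes in KO mice and by 0 in het mice. Without mice 252 and 307, 8 of the 18 cerebellar and 3 of the 19 cortical probes repeated it in KO mice, and 10 and 11 in het mice.

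The 4 probes described next have the largest fitted differences, 2 in each direction. In the region where each was low some arrays did not detect it, so a bound is also given, in which each low value under the lowest detected signal of its array was raised to that signal.

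ILMN_2641456 had the largest rise. Its level was 12.41 to 14.02 in cerebellum (median 13.51) and 4.68 to 10.50 in cortex (median 5.81), with detection on all 16 cerebellum and 9 of 16 cortex arrays. The regions did not overlap. The highest cortex value, 10.50, came from 18-month mouse 248, and the next was 8.14 in a 2-month mouse. The mean was 13.44 ± 0.40 in cerebellum and 6.29 ± 1.54 in cortex (SD, n = 16), a difference of 7.15 (SE 0.34, limma adjusted p = 8.62e-13). With undetected cortex values raised to the detection floor it was at least 117-fold higher in cerebellum. Its hippocampus mean was 6.58 ± 1.40 (SD, n = 16), near the cortex.

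ILMN_2726471 followed, with 11.84 to 12.67 in cerebellum (median 12.24) and 5.31 to 8.59 in cortex (median 6.28), where 13 of 16 arrays detected it. The highest cortex level was again that of mouse 248. Cerebellum lay above cortex by 5.94 (SE 0.20, limma adjusted p = 1.12e-14) and was at least 59.2-fold higher, with means of 12.31 ± 0.26 and 6.38 ± 0.83 (SD, n = 16). In hippocampus the mean was 7.46 ± 0.68 (SD, n = 16). For both probes the spread over mice was wider in the region where the level was low.

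ILMN_3062286 had the lowest fitted difference, though its order against the next probe was not stable. It was at 9.83 to 11.34 in cortex (median 10.95) and 4.61 to 8.90 in cerebellum (median 5.11), where 4 of 16 arrays detected it. The highest cerebellum value was that of mouse 317, and the next was 7.31 in an 18-month mouse. The fitted difference was -5.24 (SE 0.28, limma adjusted p = 3.59e-12), with means of 10.83 ± 0.44 in cortex and 5.59 ± 1.17 in cerebellum (SD, n = 16), and -5.46 without mouse 317. The cerebellum mean rests mostly on undetected signal, and as a bound the probe was at least 26.1-fold lower in cerebellum. Hippocampus had 10.08 ± 0.99 (SD, n = 16), near the cortex.

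ILMN_2913563 was at 10.97 to 11.84 in cortex (median 11.45) and at 5.05 to 9.87 in cerebellum (median 5.66), with 8 of 16 cerebellum arrays detecting it. Mouse 317 again held the highest cerebellum value and the smallest difference, -1.10. The fitted difference was -5.15 (SE 0.32, limma adjusted p = 4.09e-11), and -5.42 without mouse 317. As a bound it was at least 30.1-fold lower in cerebellum, so the bounds of the 2 falling probes stand in the opposite order to their fitted differences. Without background correction the fitted order also turned, at -3.35 for ILMN_3062286 and -3.59 for ILMN_2913563. Its hippocampus mean was 11.20 ± 0.60 (SD, n = 16), within the range of the cortex. The 4 probes differed in the same direction in all 16 mice, which was a condition of their choice.

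**Figure D3:**
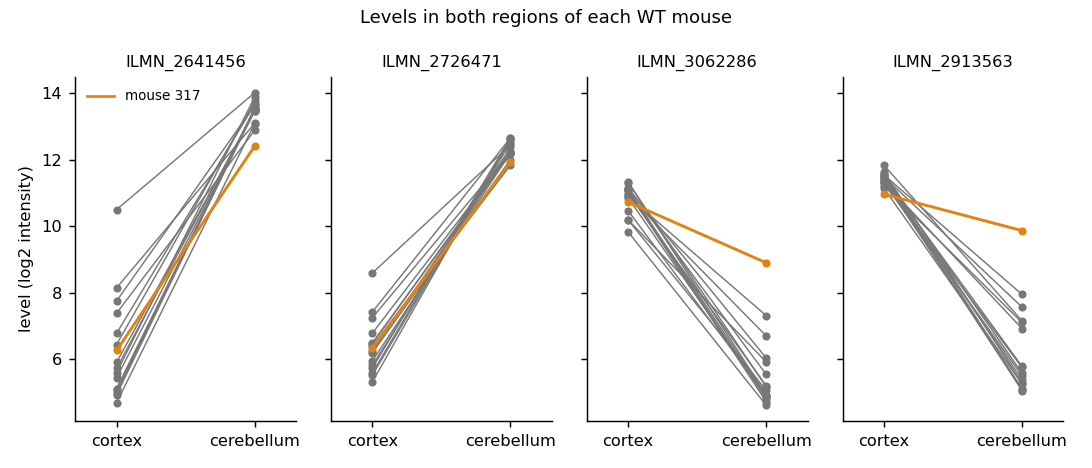
Log2 level of 4 probes in cortex and cerebellum, with a line for each of 16 WT mice and mouse 317 in orange. All 16 lines rise for ILMN_2641456 and ILMN_2726471 and fall for ILMN_3062286 and ILMN_2913563. Mouse 317 has the highest cerebellum level of both falling probes.

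The region difference was then followed over age with the 89 and 169 probes chosen in KO and het mice, which share no animal with the WT pairs. That choice included KO mouse 252 and het mouse 307, whose libraries go against their region labels. All 89 and all 169 were called in the same direction in WT mice, where 58.1% of probes were called in either direction. Without mouse 317, the median difference per WT mouse over the 89 probes was 2.59 to 3.41, and over the 169 probes -3.58 to -2.36. Mouse 317 had 2.73 and -1.30. By age, the 89 probes had differences of 2.73 to 3.21 at 2 months, 3.02 to 3.41 at 6 months, 2.59 to 3.13 at 9 months, 2.71 to 2.93 at 12 months, 3.32 in the 16-month mouse and 2.73 to 3.19 at 18 months. For these probes the ranges of neighbouring ages overlapped, apart from the single 16-month mouse. The 169 probes had differences of -2.88 to -1.30 at 2 months (-2.88 to -2.74 without mouse 317), -3.58 to -2.84 at 6 months, -3.12 to -2.83 at 9 months, -2.74 to -2.58 at 12 months, -3.26 at 16 months and -3.26 to -2.36 at 18 months. Here the 9-month and 12-month ranges did not overlap, and the difference between these ages was not tested for the set. The 9-month mice were all labelled male and the 12-month mice had no sex label.

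**Figure D4:**
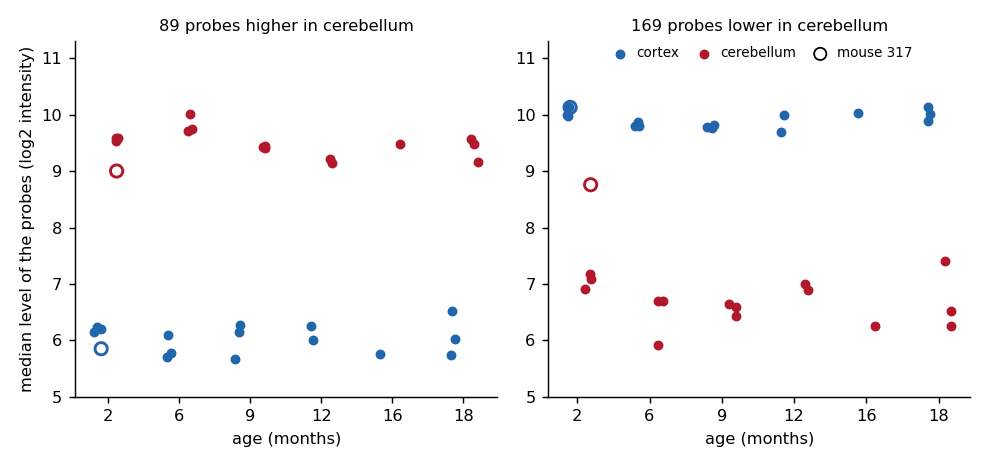
Median log2 level of 89 probes (left) and 169 probes (right) in cortex (blue) and cerebellum (red) of each WT mouse, by age in months; probes were chosen in KO and het mice. Open circles are mouse 317, whose cerebellum lies at 8.76 on the right, above 5.91 to 7.40 in the other mice.

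At 2 months alone, 2710 probes (16.5%) were called over 4 mice, with 7.89% of probes higher and 8.61% lower in cerebellum, and 2169 without mouse 317. In the 12 older mice 9402 (57.3%) were called, with 30.5% higher and 26.8% lower. These sets have different numbers of mice, so the counts are not a measure of effect. Of the 2710, 2616 (96.5%) were called in the same direction in the older mice, which is 27.8% of the older mice's calls, and 4 were called in the opposite direction. ILMN_2641456 differed by 6.26 at 2 months and 7.44 in older mice, and ILMN_3062286 by -3.86 (-4.54 without mouse 317) and -5.69. At 18 months the means were 6.30 and -5.26. Neither probe was called for a slope with age over the 16 mice (limma adjusted p = 0.9997 for both), and the 2-month arrays were dimmer.

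The change of the region difference with age was tested as a slope per month over the 16 mice. One probe, 1 of 16420 (0.00609%), was called. At an unadjusted p under 0.05 there were 795 (4.84%). The called probe, ILMN_1250696, was detected on all arrays of both regions. Its difference was -0.95 to -0.17 at 2 months and -0.39 to -0.25 at 6 months, so cerebellum was the lower region in all 7 of these mice. It was 0.16 to 0.32 at 9 months, 0.43 to 0.52 at 12 months, 0.46 at 16 months and 0.40 to 0.66 at 18 months, with cerebellum the higher region in all 9. The 6-month mice were all labelled female and the 9-month mice all male, so age and sex cannot be told apart there. Mean cerebellum level of the probe went from 10.27 at 2 months to 10.57 at 18 months, and mean cortex level from 10.95 to 10.01. The slope was 0.081 per month (SE 0.011, limma adjusted p = 0.0214). Without the 2-month mice, whose arrays were dimmer, it was 0.066 (SE 0.014) and did not pass over all probes (limma adjusted p = 0.399). Leaving out 1 mouse at a time ended the call in 7 of 16 fits (limma adjusted p 0.00895 to 0.105).

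The same probe was then examined in the KO and het mice, which had no part in its choice. Without mice 252 and 307 the slope of ILMN_1250696 was 0.065 per month in KO (SE 0.017, n = 16) and 0.073 in het mice (SE 0.019, n = 13). With them it was 0.053 (SE 0.018, n = 17) and 0.050 (SE 0.023, n = 14). Neither passed limma's test over all probes (adjusted p 0.249 to 0.958). As a single value, age and difference had Pearson's r = 0.701 and Spearman's rho = 0.702 in KO mice without mouse 252, with permutation p of 0.00255 and 0.00314, and Benjamini-Hochberg adjusted over 4 relations 0.00748 and 0.00628. In het mice without mouse 307, r was 0.749 and rho 0.807, with permutation p of 0.00374 and 0.00118, adjusted 0.00748 and 0.00472. With those mice, r was 0.588 in KO mice (permutation p = 0.0126, adjusted 0.0168) and 0.513 in het mice (permutation p = 0.0602, adjusted 0.0602), and rho was 0.567 (p = 0.0193, adjusted 0.0257) and 0.533 (p = 0.0512, adjusted 0.0512). Leaving out the 2 mice whose ages lay farthest from the median, r was 0.655 in KO and 0.682 in het mice, again without 252 and 307, and 0.52 and 0.359 with them. Among mice over 2 months the slope was 0.017 in KO (SE 0.018, n = 12) and 0.059 in het mice (SE 0.026, n = 11). In KO mice the relation therefore rested on the 2-month arrays.

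**Figure D5:**
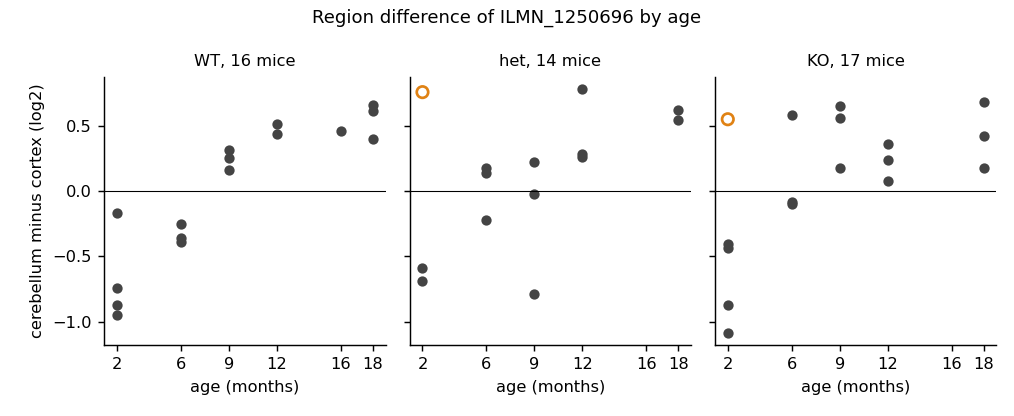
Cerebellum minus cortex (log2) of ILMN_1250696 against age in months, with 1 point for each mouse of 3 genotypes. In WT mice all 7 values at 2 and 6 months lie below 0 and all 9 later values above it; open orange circles are KO mouse 252 and het mouse 307, whose libraries go against their region labels.

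The region difference was measured again in KO and het mice. Paired by mouse, 8444 probes (51.4%) were called in the 17 KO mice, of which 4545 (27.7%) were higher and 3899 (23.7%) lower in cerebellum. In the 14 het mice 7602 (46.3%) were called, 3975 (24.2%) higher and 3627 (22.1%) lower. Without mouse 252 there were 8810 in KO mice (53.7%) and without mouse 307 there were 8421 in het mice (51.3%). Of the WT calls, 7878 (82.6%) were called in the same direction in KO mice without mouse 252, which is 89.4% of the KO calls, and 5 in the opposite direction. In het mice without mouse 307 the number was 7660 (80.3% of WT calls and 91% of het calls), with 1 in the opposite direction. Of the 363 probes with a WT difference of 2 or more, 362 were called in the same direction in KO mice without mouse 252. In het mice without mouse 307 all 363 were, and 309 and 335 again differed by 2 or more. With mice 252 and 307 included, 7628 WT calls (80%) were repeated in KO mice and 7032 (73.7%) in het mice. In the opposite direction there were 5 and 0. Of the 363 probes, 362 and 361 were then called in the same direction, and 267 and 284 again differed by 2 or more.

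The 4 probes named above differed in the same direction in KO and het mice. ILMN_2641456 differed by 6.44 in KO mice (SE 0.41, limma adjusted p = 5.38e-11, n = 16) and 6.94 in het mice (SE 0.44, limma adjusted p = 7.49e-10, n = 13). ILMN_2726471 had 5.23 and 5.68, ILMN_3062286 had -5.22 and -5.84, and ILMN_2913563 had -5.05 and -5.76. These values leave out mice 252 and 307. With them, ILMN_2641456 had 5.64 and 5.90 and ranged from -7.54 to 8.77 over mice.

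Whether the region difference depended on genotype was tested on the per-mouse differences, with age as a factor. No probe passed for KO minus WT, 0 of 16420 (0%), with 883 (5.38%) at an unadjusted p under 0.05 and a smallest limma adjusted p of 0.107. Without the 2-month mice 5 probes passed, and without background correction 1. For het minus WT there were 0 of 16420 (0%), with 616 (3.75%) and 0.999. The central 95% of estimates lay between -0.32 and 0.315 for KO and between -0.335 and 0.316 for het mice, at a median SE of 0.13 and 0.141. Without mice 252, 307 and 317, 0 were called in either comparison, with 883 and 628 at an unadjusted p under 0.05. A p that misses the threshold does not show that the genotypes are alike.

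Cerebellum minus hippocampus, in the 13 WT mice with both, gave 7144 called probes (43.5%), 3715 (22.6%) higher and 3429 (20.9%) lower in cerebellum, and 7252 in all without mouse 317. The comparison shares its cerebellum arrays with that against cortex, so its values stand beside the others and are no separate support. ILMN_2641456 differed from hippocampus by 6.82 (SE 0.43) and ILMN_2726471 by 4.85 (SE 0.20). ILMN_3062286 differed by -4.71 (SE 0.39) and ILMN_2913563 by -5.12 (SE 0.39).

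The spread between mice of an age was similar in both regions. The median standard deviation over probes, with age removed, was 0.264 in cerebellum and 0.246 in cortex, and it was larger in cerebellum for 57.3% of probes. Without mouse 317 these were 0.253 and 0.241, and 54.4%.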

How the data were processed

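Per the labels, RNA was extracted with Trizol, cleaned on columns and biotin-labelled for Illumina arrays. The deposited table holds, per the file headers, an intensity and a detection p-value for each probe and array, not normalized. The software that made it is not given in the sources used here. Columns were matched to samples by title. A further set of 9 arrays there matches no sample and was not used.

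The 154 bead arrays were background-corrected and quantile-normalized with neqc (offset 16) of limma 3.58.1 (R 4.3.3, statmod 1.5.0, with version 1.17.8 of data.table). Differences are on the log2 scale with this offset, which understates changes of dim probes. Each comparison was fitted over all tested probes, two-sided, with mouse as a block for regions and Benjamini-Hochberg adjustment. Permutation tests drew 100000 resamples. Scripts were tested on simulated data. The number of mice limits the precision.

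Mouse numbers pair the arrays, since the same number in the labels is the same animal. Deviations from the region mean, which keep the differences between ages, correlated at 0.397 to 0.726 within a mouse (median 0.566). With other mice of that age they correlated at 0.181 to 0.658 (median 0.455), so the ranges overlapped. With mice of other ages the median was -0.104, so part of the within-mouse correlation is shared by mice of an age. In 11 of the 16 mice the cerebellum correlated best with its own cortex.

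The members and lists were chosen with earlier results of these data known. Named probes are the 2 largest differences each way among called probes with 1 direction in all 16 mice, and the probe called for age. Planned lists of marker genes, receptor families and promoter motifs, and the choice of 1 probe per gene, were not run, because the files do not pair probes with genes.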

Additional observations from a re-analysis of the deposited data

Results flagged for a closer look

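Among the 4 mice of 2 months, the median difference over the 169 probes lower in cerebellum was -1.30 in mouse 317 and -2.88 to -2.74 in the other 3. The gap was 0.908 of the range, above Dixon's critical value for 4 samples. Of 6 measures examined in this way 1 stood apart, where chance gives about 1 in 20.

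The region difference of ILMN_1250696 was called for a change with age in WT mice, with a slope of 0.0812 per month (limma adjusted p = 0.0214). Cerebellum was lower in 7 of 7 mice up to 6 months and higher in 9 of 9 older mice. These counts come from the same values that chose the probe and add no support. The 6-month mice were all labelled female and the 9-month mice all male. The call was not stable. Without the 2-month mice, whose arrays were dimmer, the probe did not pass (limma adjusted p = 0.399). Leaving out each mouse in turn ended the call in 7 of 16 fits.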

How the results depend on the processing

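The 4 probes named for their region difference kept their direction and stayed called under all 32 alternatives. These are not all distinct. Leaving out the 2-month mice and using mice over 2 months alone are the same fit. So are leaving out the 16-month mice and leaving out mouse 79. ILMN_2641456 lay at 5.60 to 7.44 and ILMN_3062286 at -5.69 to -3.35. The count of 9539 stayed within 1.5 times of its value under every alternative but the 2-month mice alone (2710, and 2169 without mouse 317), including 9145 with no replicate block, that is, unpaired. Leaving out 1 mouse gave 9194 to 9563. Without background correction, 43 probes rather than 137 were higher by 2 or more and 84 rather than 226 lower, while 9585 were called. The 1 probe whose difference changed with age became 0 without the 2-month mice (916 at an unadjusted p under 0.05 in limma), 4 for 18 minus 2 months and 0 to 1 on leaving out a mouse. A comparison of older with 2-month mice, chosen after seeing the data, called 46, and 57 without mouse 317. For KO minus WT, 5 probes were called without the 2-month mice, all with a higher signed cerebellum minus cortex value in KO. In most but not all of them, cerebellum was the lower region in WT and the gap was smaller in KO. ILMN_2689785 had the smallest adjusted p (limma adjusted p = 0.0179, against 0.107 with all mice). Over all mice, its means in cerebellum and cortex were 6.14 and 7.265 in WT and 7.989 and 8.203 in KO. Without background correction 1 probe was called, ILMN_2865527 (limma adjusted p = 0.00238, against 0.752). With background correction its means were 6.232 and 10.73 in WT and 5.512 and 9.006 in KO. Both named probes were chosen after their values were seen. The causes of these changes were not tested. Unpaired fits gave 7944 calls in KO mice, 7873 in het mice and 7167 against hippocampus, and the pairing changed no count by over 1.5 times. Taking the probe with the smallest p per gene was not run. Fits without mice 252, 307 or 317 were chosen after seeing the data. Dim probes limit what can be seen, since 33.5% of the dimmest probes, the lowest of 4 groups by level, were called.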
